A study of Mus musculus with 19 samples.

Results

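The step from 4 to 8 weeks after CAWS was examined in blood leukocytes of male DBA/2 mice by setting the 2 arrays titled DBA/2_8w against the 2 titled DBA/2_4w, which are 4 of the 19 arrays of the series. The question was which genes waned between 4 w and 8 w and which increased further. CAWS is a water-soluble mannoprotein preparation of the yeast Candida albicans that causes inflammation of the aorta and coronary arteries in mice. DBA/2 and B6 mice were all given CAWS intraperitoneally on consecutive days, and 0 w was set right after the last injection, so that no group, 0 w included, was untreated. RNA was taken at 0 w and 2 w, at 4 w, and from 8 w on (8 w or 9 w), from those mice that had survived, so that both groups hold survivors only. Ages are given only as a range over all experiments. The labels describe total RNA of leukocytes caught on a filter from whole blood and, elsewhere, peripheral blood mononuclear cells. None of the 8 general leukocyte markers and none of the 15 tested neutrophil markers lay in the background on all 4 arrays, so granulocyte transcripts were measured.

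Each RNA was hybridised in 1 colour to an Agilent whole mouse genome array. A level is given below as a normalized log2 signal, which is the log2 of the processed signal minus the array's own 75th percentile, so that 0 is that percentile and each unit is a doubling. Levels are compared between arrays for 1 probe and never between probes. Tests covered the 22939 of 41174 probes that exceeded background clearly in 2 or more of 18 RNA samples, and a change was called where limma gave an adjusted p (Benjamini-Hochberg over all tested probes) under 0.05. Spots well above background made up 34.9% of the array of 4 w replicate 2 and between 46.2% and 51.3% of the other 3 arrays. The lowest normalized log2 signal was -6.42 on 4 w replicate 2, against -8.09 on 4 w replicate 1 and -8.04 and -7.60 at 8 w. On the slide of replicate 2, 4308 tested probes were well above background at neither time and had a median change of -0.35, and 98 of them were called lower. The part of this floor in the falls of dim probes was not tested.

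The replicates lay very close together. Over 2836 bright probes the robust SD of the log2 difference between labelled biological replicates was between 0.08 and 0.14 in 9 pairs of arrays, with 0.08 at 4 w and 0.12 at 8 w in DBA/2 mice. For 2 arrays of the same RNA it was 0.08. Between 4 w and 8 w it was between 0.28 and 0.35 in the 4 possible pairs. The labels call the replicates biological but tie no array to a mouse, so the p-values below measure the spread between these arrays, which may be technical, and not the spread between mice. Replicate 1 of 0 w, 2 w, 4 w and 8 w lay on 1 slide and replicate 2 on another, scanned on another date.

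**Figure D1:**
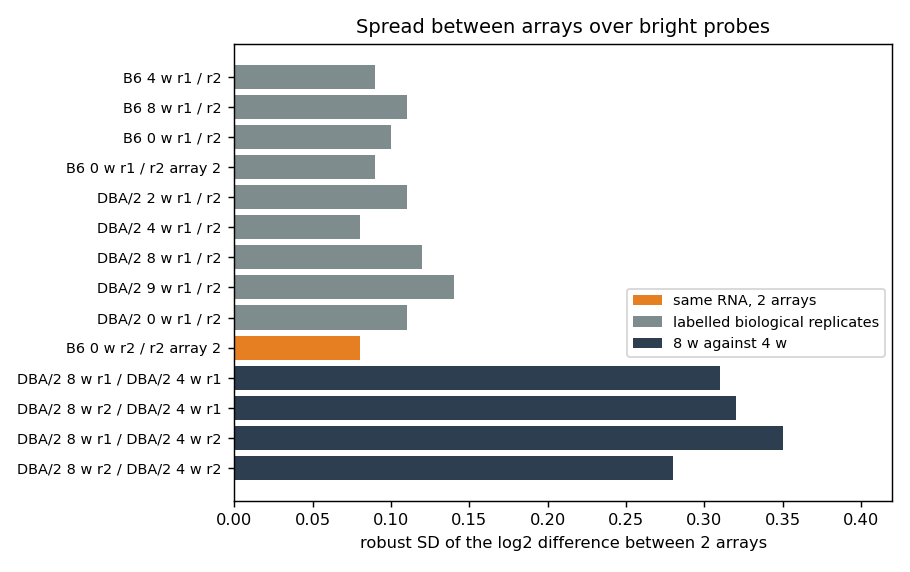
Robust SD of the log2 difference between 2 arrays over 2836 bright probes, 1 bar for each pair of arrays (r1 and r2 are replicates 1 and 2). The labelled replicates (grey) lie between 0.08 and 0.14, the 2 arrays of 1 RNA (orange) at 0.08, and the pairs of 8 w against 4 w (dark) between 0.28 and 0.35.

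Blood leukocytes in such a model hold short-lived neutrophils, monocytes, and T and B lymphocytes. Neutrophil granule proteins are made in precursors in the bone marrow, and their transcripts are low in fully mature cells. Interferon gamma, made by T and NK cells, acts through Jak kinases on genes such as guanylate-binding proteins and immunity-related GTPases, while complement proteins, largely of hepatic origin, are also made by monocytes and macrophages. In RNA from mixed blood cells, a lower level from fewer cells of a type and one from less RNA per cell cannot be told apart.

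From 4 w to 8 w, transcripts of neutrophil granules and of interferon gamma targets increased further, while Saa3, C4b, Fos, Ccl3 and Ccl4, all raised at 4 w, waned. In all, 1921 of 22939 probes (8.37%) passed the threshold, 813 higher (3.54%) and 1108 lower (4.83%) at 8 w. The 1921 probes carried 1499 genes with a reference symbol, through 1708 of the probes. The groups did not overlap for any of the 1921, so that their sign was the same on both slides by necessity. Over all probes tested the sign was the same for 71.6%. With the replicate number as a block, which was also the scan date, 3140 probes passed, 1349 of them higher. Without 1 of the 4 arrays between 655 and 987 passed (655 without 4 w replicate 2, 710 without 8 w replicate 2, 741 without 8 w replicate 1 and 987 without 4 w replicate 1), and after another background correction, normexp, 45 passed, 36 of them higher. The split between higher and lower calls moved with the scaling, from 42.3% higher here to 52.1% after quantile normalization, 54.1% when scaled to the median, 58.8% when scaled to the 75th percentile of all probes and 11.2% in the unscaled value table, in which the median of all probes lay at -0.25. Of 133 called probes given by the rule for naming genes, 63 kept the call with each of the 4 arrays left out in turn, 37 lost it in all 4 cases and 17 kept it after normexp.

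Without any test, 926 probes (4.04%) differed at least 2-fold with no overlap of the groups, 314 higher and 612 lower at 8 w. Groups that merely did not overlap were common, at 49.2% of tested probes. Of the called probes 310 changed at least 2-fold, 129 higher and 181 lower, and the median absolute log2 change of the called probes was 0.54. For 26 called probes neither group was well above background, and for 83 only a bound could be given. Over all tested probes the median log2 change was -0.07.

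**Figure D2:**
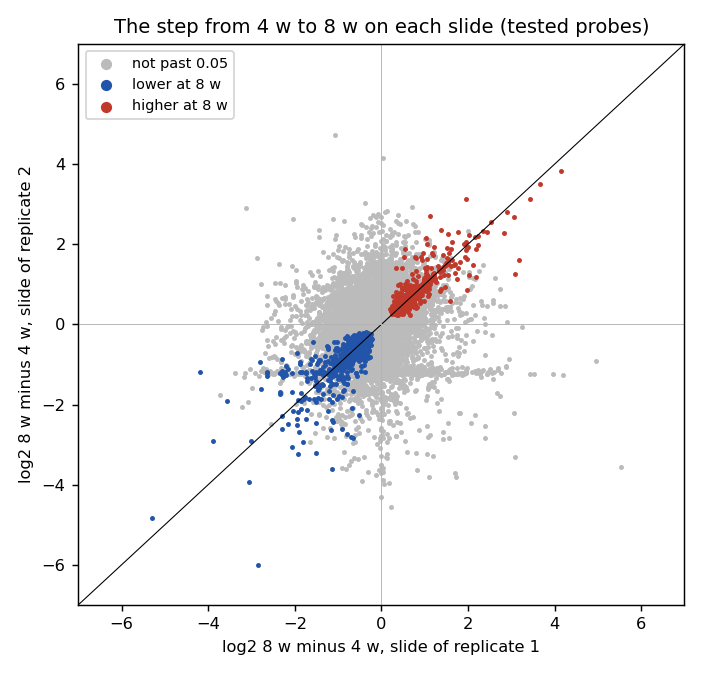
The log2 change from 4 w to 8 w of each tested probe on the slide of replicate 1 (horizontal) and of replicate 2 (vertical), with called probes in red (higher at 8 w) and blue (lower) and the line of equal change. Called probes, whose groups did not overlap, necessarily lie on the same side of 0 on both slides. The grey band along a vertical value near -1 lies at the difference between the lowest signals of the 2 arrays of replicate 2.

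The later step was read against the change up to 4 w. At 4 w against 0 w, 3400 probes (14.8%) had passed, 1739 higher (7.58%) and 1661 lower (7.24%). The share of higher calls was 51.1%, and 68.7% when scaled to the 75th percentile of all probes. Both comparisons use the 4 w arrays, so that a high value there by error alone moves a probe up in one and down in the other, and their calls are set side by side only as a description. Of the probes higher at 4 w, 308 increased further, 223 waned and 1208 did not pass at the later step. Of the probes lower at 4 w, 119 rose back, 196 fell further and 1346 did not pass. The remaining calls of the later step, 386 higher and 689 lower, fell on probes that had not passed at 4 w.

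**Figure D3:**
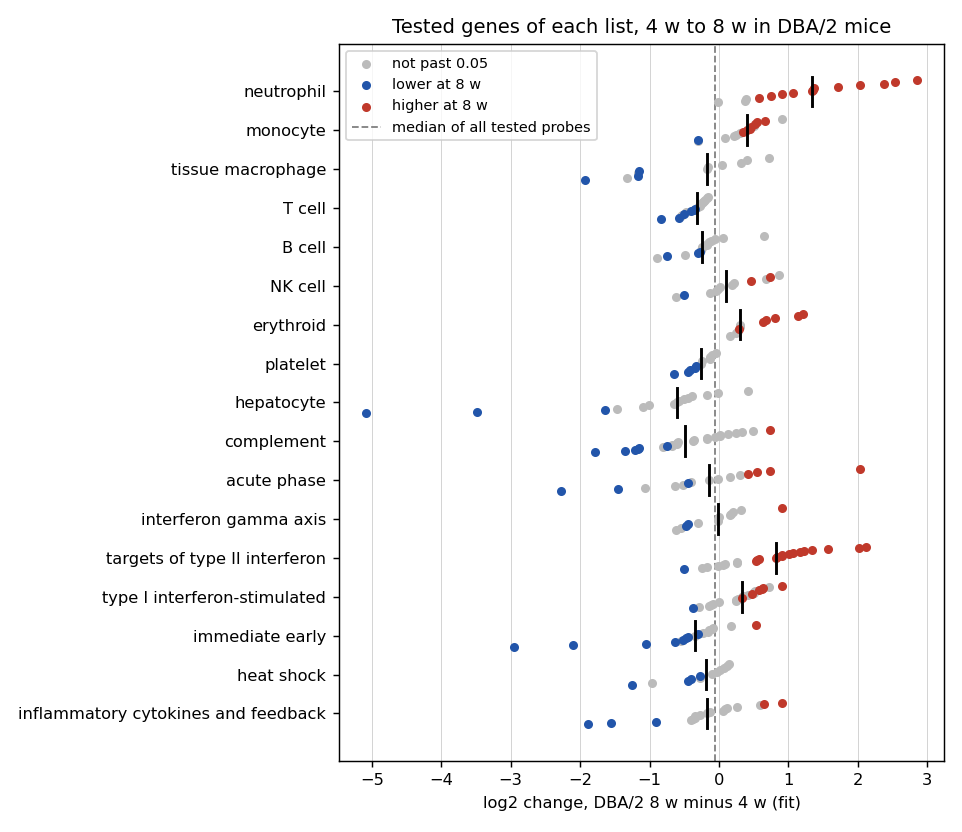
Fitted log2 change from 4 w to 8 w in DBA/2 mice of every tested gene of 17 gene lists, 1 point for each gene by its brightest probe, red where higher and blue where lower past 0.05 and grey otherwise. Black bars are list medians and the dashed line is the median of all tested probes, -0.07. Neutrophil genes (median 1.34) and targets of type II interferon (0.82) lie to the right.

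Among the largest falls were some acute-phase and macrophage transcripts. Saa3, an acute-phase apolipoprotein that inflamed macrophages also make, had normalized log2 signals of 3.38 and 3.37 at 4 w and 1.09 and 1.10 at 8 w, after -3.89 and -4.25 at 0 w. The groups did not overlap, and both 8 w arrays stayed far above 0 w. Saa3 thus fell 4.87-fold (log2 -2.28 ± 0.48 SE, n = 2 arrays at each time, limma adjusted p 0.0199), having risen by 7.44 on the log2 scale by 4 w. The call was lost with each of the 4 arrays left out in turn, at an unmoved log2 change between -2.29 and -2.28. The Saa3 probe lies at chr7:46580703-46580762 of mm8, the build of the array files.

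Saa1, of the same family, fell by 1.46 ± 0.22 on the log2 scale (limma adjusted p 0.00464), from 2.93 and 3.00 to 1.41 and 1.59. Trf, transferrin, the iron carrier of plasma, fell by 0.44 (limma adjusted p 0.0314), a call lost with each of the 4 arrays left out in turn. The acute-phase list did not move as 1 group, since 4 of its 15 tested genes were higher and 3 lower, at a median of -0.15. Its rising members were the neutrophil protein Lcn2, the haemoglobin scavenger Hp (log2 0.73, from 3.39 and 3.36 to 4.11 on both arrays, limma adjusted p 0.000933) and the transcription factors Cebpb (0.54) and Cebpd (0.42). Cebpb lost the call with each of the 4 arrays left out, and Cebpd kept it only without 8 w replicate 1. Lbp, the lipopolysaccharide-binding protein, stood at log2 -1.06 ± 0.35 and did not pass (limma adjusted p 0.0994).

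Complement genes changed in both directions. C4b, the fourth component, cleaved in the classical and lectin pathways, gave 0.24 and 0.23 at 4 w and -1.53 and -1.58 at 8 w, with -2.99 and -2.98 at 0 w. The 8 w arrays lay between 0 w and 4 w without overlap. C4b fell 3.46-fold (log2 -1.79 ± 0.28, limma adjusted p 0.00801), and the call was lost without 4 w replicate 2 and without 8 w replicate 2, at log2 changes between -1.81 and -1.77. Whether its probe, at chr17:34337472-34337531 of mm8, separates C4b from its near copy C4a was not tested.

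C3, the component on which all complement pathways meet, moved the other way. It gave 0.05 on both arrays at 0 w, 1.86 and 1.82 at 4 w and 2.59 and 2.54 at 8 w, with no overlap. At 9 w it was lower again, at 1.83 and 1.71. C3 rose 1.66-fold from 4 w to 8 w (log2 0.73 ± 0.07, limma adjusted p 0.000547), and the call held with each of the 4 arrays left out in turn, although not after normexp (adjusted p 0.156 at log2 0.69). Cfb, factor B of the alternative pathway, stood at -1.68 and -1.93 at 4 w and at -1.38 and -1.57 at 8 w. Its change of 0.33 ± 0.11 did not pass (limma adjusted p 0.109) but did with the replicate block (0.0454).

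Among recognition molecules, Fcna, ficolin A of the lectin pathway, fell by 1.21 ± 0.30 on the log2 scale (limma adjusted p 0.0387), from -1.87 and -1.94 to -3.22 and -3.00. The C1q chains C1qa and C1qc, which start the classical pathway and mark tissue macrophages, fell by 1.16 ± 0.28 and 1.15 ± 0.25 (limma adjusted p 0.0345 and 0.0224). The probe of C1qb, the remaining chain, stood at -0.03 and 1.00 at 4 w and at -0.27 and 0.90 at 8 w, so that the replicates of each time lay further apart than the times. Calls of Fcna, C1qa and C1qc were lost with each of the 4 arrays left out in turn, and those of Fcna and C1qa with the slide as a block (adjusted p 0.0585 and 0.068).

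Of the receptors and regulators, Cr2, the B cell receptor for C3 fragments, fell by 0.75 ± 0.14 (limma adjusted p 0.0113), a call kept only without 4 w replicate 2. C5ar1 (log2 -0.06), Cd55 (0.01), Cd59a (0.01), Cd59b (-0.18) and Cr1l (0.49) did not pass. Nor did Cfp, properdin (-0.68 ± 0.51), C2 (-0.68 ± 0.33), C1ra (0.13) and Hc, the fifth component (0.24), although Cfp did with the slide as a block (limma adjusted p 0.0149). C1s1, C9, Cfi, Serping1 and Mbl1 were not well above background at either time, and neither was Mbl2, whose fitted fall passed and was lost with each of the 4 arrays left out. Over the complement list 1 of 24 tested genes was higher and 6 lower, Mbl2 included, at a median of -0.48. With 1 of the 4 arrays left out, 0 to 4 were lower (1 without 4 w replicate 2), and after normexp the median was -0.04. Hepatocyte markers, described below, had a median change of -0.61, which lay between -0.83 and 0.02 under other scalings and normexp. Their part in the falls of complement and acute-phase genes was not tested.

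Some macrophage genes were lower too. Changes in the tissue macrophage list were negative for 7 genes and positive for 4. None of the positive ones passed (Spic 0.72, Slc40a1 0.40, Hmox1 0.31 and Marco 0.04). Cd163, the macrophage receptor for haemoglobin bound to haptoglobin, gave -3.46 and -3.58 at 4 w and -5.19 and -5.72 at 8 w, with a single 8 w array clearly above background. It fell by 1.93 ± 0.30 on the log2 scale (limma adjusted p 0.00593), and the call held with each of the 4 arrays left out in turn but not after normexp (log2 -0.45, adjusted p 1.0). Fn1, fibronectin, fell by 1.16 ± 0.26 at its brightest probe (limma adjusted p 0.0254) and by 1.98 ± 0.24 at another (0.00179). After normexp the 2 Fn1 probes stood at -0.72 and -0.65, and neither passed. Clec10a, a lectin of alternatively activated macrophages, fell by 0.52 (limma adjusted p 0.0193), while Chil3, a chitinase-like protein that neutrophils also make, rose by 0.83 (0.00391). In the list of alternative macrophage activation 1 of 10 tested genes was higher and 2 lower, at a median of -0.27. The calls of Clec10a and of the brightest Fn1 probe were lost with each of the 4 arrays left out in turn. Of 11 tested tissue macrophage markers 3 were lower and none higher, at a median of -0.17, and 1 or 2 were lower with 1 of the 4 arrays left out.

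**Figure D4:**
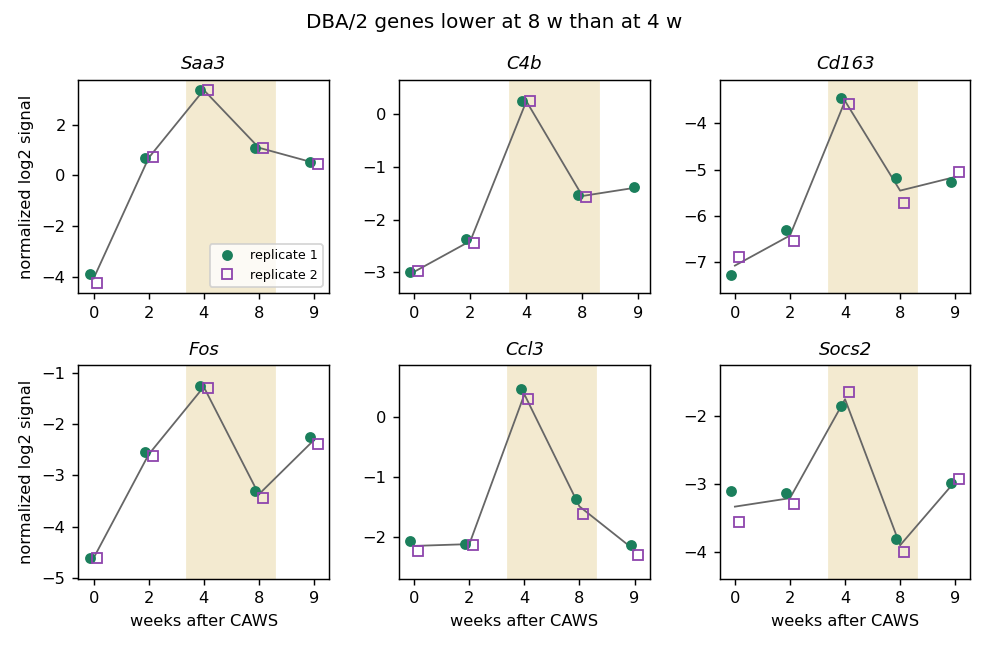
Normalized log2 signal of 6 genes lower at 8 w than at 4 w against weeks after CAWS in DBA/2 mice (points are the 2 replicates, lines their mean, the shaded band the step from 4 w to 8 w). Saa3, C4b and Cd163 rose up to 4 w and lay lower at 8 w, and C4b has 1 array at 9 w.

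Some immediate early genes, which are switched on within minutes of a stimulus, were lower as well. Fos, a subunit of the transcription factor AP-1, gave -1.25 and -1.29 at 4 w and -3.30 and -3.44 at 8 w, against -4.61 and -4.62 at 0 w. The fall was 4.29-fold (log2 -2.10 ± 0.09, limma adjusted p 5.53e-06) and the call held with each of the 4 arrays left out in turn. Its partner Jun fell by 1.05 ± 0.14 (limma adjusted p 0.00305). Egr1, a zinc finger factor of the same response, fell by 2.96 ± 0.41 (limma adjusted p 0.0034), from -2.28 and -2.10 to -5.28 and -5.01, with a single 8 w array clearly above background.

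Of 17 tested genes of this list 8 were lower and 1, the stress gene Gadd45b (log2 0.53, limma adjusted p 0.00966), was higher, at a median of -0.34 against -0.07 over all probes. The other lower genes were Junb, Ier2, Dusp1, Dusp2 and Nr4a1, with log2 changes between -0.63 and -0.31. With 1 of the 4 arrays left out, 6 were lower in each case. After normexp limma called none of the 17 (7 at an unadjusted p under 0.05), with Fos at -1.21 (adjusted p 0.306) and Egr1 at -0.99 (1.0). Nr4a1 lost the call with each of the 4 arrays left out, and Gadd45b without 4 w replicate 2 and without 8 w replicate 1. Of 12 heat shock genes 4 were lower and none higher, at a median of -0.19. They were the inducible chaperone Hspa1a (-1.26 ± 0.28, limma adjusted p 0.0248) and the chaperones Hsp90ab1 (-0.44), Hspe1 (-0.40) and Hsph1 (-0.28). All 4 calls were lost with each of the 4 arrays left out in turn, and those of Hspa1a and Hsph1 with the slide as a block (adjusted p 0.0731 and 0.0509).

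Chemokine genes changed in both directions. Ccl3, which draws monocytes and T cells, gave 0.47 and 0.30 at 4 w and -1.37 and -1.61 at 8 w, still above the -2.06 and -2.24 of 0 w. It fell 3.67-fold (log2 -1.88 ± 0.11, limma adjusted p 3.49e-05), and its neighbour Ccl4 fell by 1.56 ± 0.14 (limma adjusted p 0.000471). The receptors Cxcr6 and Cxcr3 of activated T cells fell by 1.49 ± 0.12 and 1.31 ± 0.08 (limma adjusted p 0.000215 and 3.86e-05), Cxcr3 from 0.26 and 0.30 to -1.08 and -0.97, which is the level of 0 w (-1.07 and -0.99). All 4 calls held with each of the 4 arrays left out in turn, and those of Cxcr6 and Cxcr3 after normexp too (adjusted p 0.00395 and 0.014), unlike those of Ccl3 and Ccl4 (0.143 and 0.2 at log2 -1.50 and -1.27).

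The ligands of Cxcr3 increased. Cxcl10 gave -5.23 and -5.06 at 4 w, with 1 array clearly above background, and -3.26 and -3.00 at 8 w, a rise of 4.03-fold (log2 2.01 ± 0.34, limma adjusted p 0.00794). Cxcl9 rose by 1.57 ± 0.28 (limma adjusted p 0.0106) from a like start. The call of Cxcl10 was lost without 8 w replicate 2, and that of Cxcl9 without 4 w replicate 2 and without 8 w replicate 1. After normexp neither passed, with log2 changes of 0.56 for Cxcl10 and 0.46 for Cxcl9 (adjusted p 1.0 for both). Ccr2, the receptor that brings monocytes out of the marrow, rose by 0.45 (limma adjusted p 0.0106), and Ccl5 by 0.27 (0.0478). Ccr2 kept the call only without 8 w replicate 1, while Ccl5 lost it with each of the 4 arrays left out and with the slide as a block (adjusted p 0.0517). Of 20 tested chemokine genes 4 were higher and 4 lower, at a median of 0.06.

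Other cytokine genes also changed in both directions. Osm, oncostatin M, a cytokine of the interleukin-6 family, fell by 0.91 ± 0.19 (limma adjusted p 0.0198), a call kept only without 8 w replicate 2. Il1r2, the decoy receptor for interleukin-1 that neutrophils carry, rose by 0.90 ± 0.10 (limma adjusted p 0.00148), and Casp1, the protease that matures interleukin-1, by 0.65 ± 0.07 (0.00132). Il4 and the helper T cell factor Gata3 fell by 0.88 ± 0.10 and 1.00 ± 0.16 (limma adjusted p 0.00146 and 0.00607), the only 2 calls among 9 tested genes of helper T cell fates. After normexp the log2 changes of Il4 and Gata3 were -0.36 and -0.53, and neither passed. Socs2, a feedback inhibitor of cytokine receptors, fell by 2.16 ± 0.49 (limma adjusted p 0.0273), from -1.85 and -1.65 to levels of -3.81 and below on both 8 w arrays, and lost the call with each of the 4 arrays left out in turn.

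Neutrophil transcripts increased. Ngp, the neutrophilic granule protein, gave -3.58 and -3.53 at 0 w, -2.18 and -2.20 at 4 w, and 0.72 and 0.59 at 8 w. It rose 7.20-fold from 4 w to 8 w (log2 2.85 ± 0.25, limma adjusted p 0.000363). Camp, the cathelicidin precursor, went from -0.23 and -0.29 to 2.31 and 2.26 (log2 2.54 ± 0.12, limma adjusted p 8.13e-06), and Ltf, lactoferrin, from -0.56 and -0.76 to 1.87 and 1.54 (2.37 ± 0.26, 0.00129). The 3 genes encode proteins of specific granules, and in each the groups did not overlap.

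Lcn2, a specific granule protein that binds bacterial siderophores, rose by 2.03 ± 0.30 (limma adjusted p 0.00425; after normexp 1.22 and 0.533), and Wfdc21, a whey acidic protein family member, by 2.17 ± 0.10 (8.13e-06). The calls of Ngp, Camp, Ltf and Wfdc21 held with each of the 4 arrays left out in turn and after normexp. Mpo, the peroxidase of primary granules and of earlier precursors, rose by 1.06 ± 0.26 (limma adjusted p 0.0427), a call lost with each of the 4 arrays left out in turn and with the slide as a block (0.0591), while Prtn3 (0.64) and Ctsg (0.20) of the same granules did not pass. Genes of other granules and of the cytosol rose too, with Mmp8 at 1.34, S100a8 at 1.37, S100a9 at 1.07, Retnlg at 1.35 and Mmp9 at 0.57. Cxcr2 (0.39) and Csf3r (0.38), receptors of mature neutrophils, and G0s2 (-0.01) did not pass.

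Of 15 tested neutrophil markers 12 were higher and none lower, at a median of 1.34, and 10 to 12 were higher without 1 of the 4 arrays and 6 after normexp. Summed over the list, the linear normalized signal was 363 and 337 at 4 w and 788 and 708 at 8 w. Such a sum weighs the brightest probes most and does not describe each marker. Over the granule and precursor genes given next it was 8.61 and 7.9 at 4 w and 21.7 and 19.7 at 8 w. Of 15 granule and precursor genes 10 were higher and none lower, at a median of 0.83. Without 1 of the 4 arrays 7 to 9 of these were higher (7 without 4 w replicate 2) and 0 or 1 lower, and after normexp 3 were higher. The list of the NADPH oxidase, which makes the oxidative burst, had 5 of 10 genes higher and none lower, but 1 to 3 with 1 of the 4 arrays left out. Of the 5, Cybb, the catalytic subunit (log2 0.47, limma adjusted p 0.00618), and Ncf4 (0.45, 0.0274) belong to the oxidase, their calls being lost without 4 w replicate 2 and with each array left out, respectively, while Mpo, Sod2 (0.48, 0.00558) and Gpx1 are enzymes that handle reactive oxygen.

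Targets of interferon gamma increased, while the change of Ifng itself did not pass. Ifng gave -1.57 and -1.80 at 4 w and -1.86 and -2.11 at 8 w, against -3.37 and -3.58 at 0 w, a change of -0.30 ± 0.12 that did not pass (limma adjusted p 0.187) but did with the replicate block (0.0282). Its receptor chains Ifngr1 (0.31) and Ifngr2 (0.17) and the signal carriers Jak2 (-0.02) and Socs1 (-0.02) did not pass, though Ifngr1 did with the replicate block (adjusted p 0.0322). Jak1 fell by 0.47 ± 0.07 (limma adjusted p 0.00406) and Il18r1, a receptor chain for interleukin-18, by 0.45 ± 0.09 (0.0151), the latter a call lost with each of the 4 arrays left out. Tbx21, the factor of Th1 cells (-0.62 ± 0.25), Il12rb1 (-0.55 ± 0.17), Il12a (0.20) and Il18 (0.00) did not pass.

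Gbp2, a guanylate-binding protein that attacks the vacuoles of intracellular microbes, gave 0.57 and 0.56 at 4 w and 2.81 and 2.55 at 8 w. It rose 4.32-fold (log2 2.11 ± 0.12, limma adjusted p 2.81e-05), after -1.25 and -1.38 at 0 w. Gbp3 went from -1.15 and -1.16 to 0.18 and 0.19 (1.34 ± 0.07, limma adjusted p 2.45e-05). Irf1, the transcription factor that relays the signal, went from 1.84 and 1.72 to 2.78 and 2.61 (0.91 ± 0.10, limma adjusted p 0.00129). These 3 calls held with each of the 4 arrays left out in turn and after normexp.

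The immunity-related GTPases rose too, with log2 changes of 1.22 for Tgtp1, 1.17 for Irgm1, 1.07 for Iigp1, 0.82 for Irgm2 and 0.53 for Igtp. So did Psmb9 (0.90) of the immunoproteasome, the peptide transporter Tap1 (0.57), the checkpoint ligand Cd274 (0.55) and the Fc receptor Fcgr1 (0.84). Psmb8 (0.26) and Psmb10 (0.26) of the immunoproteasome did not pass, nor did Tapbp (0.06), Gbp6 (-0.18) and Irf8 (-0.25). Ciita, the master regulator of MHC class II genes, was the 1 member that fell (log2 -0.50 ± 0.10, limma adjusted p 0.019), a call lost without 4 w replicate 1 and without 8 w replicate 2. Of 23 tested targets 15 were higher and 1 lower, at a median of 0.82, and 11 to 15 were higher without 1 of the 4 arrays, but 5 after normexp. Of 12 MHC class II genes 1 was higher and 1, Ciita, lower.

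Stretches before the start sites are shown for 6 of the targets that rose, because interferon-activated factors are known to bind short elements there, the interferon-stimulated response element and the gamma-activated site. In RefSeq promoters of GRCm38.p6 (250 bases before to 50 after each start, both strands searched) the first element, read as GAAA and GAAA with 2 bases between, stood in 9 of 23 windows of the list (39.1%) and in 3.44% of all 32851 windows, and the second, TTCNNNGAA, in 9 of 23 (39.1%) and in 8.30%. The windows covered 20 of the 23 genes. In the list of the type I interferon response, given below, the first element stood in 12 of 20 windows and the second in 6 of 20. Neither element was thus particular to the targets of interferon gamma. Capitals mark the match, a pair of TTTC being the same element on the opposite strand, and each run is read 5′ to 3′ on the strand of the gene. A match is a description and not a site.
Gbp2 (chr3:142620594-142620623, plus strand): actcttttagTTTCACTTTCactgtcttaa
Gbp3 (chr3:142559989-142560018, plus strand): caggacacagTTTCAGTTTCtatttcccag
Irgm1 (chr11:48871425-48871454, minus strand): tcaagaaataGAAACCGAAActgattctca
Tgtp1 (chr11:48992304-48992333, minus strand): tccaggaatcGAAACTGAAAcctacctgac
Cxcl10 (chr5:92349083-92349112, minus strand): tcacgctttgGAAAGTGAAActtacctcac
Irf1 (chr11:53769914-53769943, plus strand): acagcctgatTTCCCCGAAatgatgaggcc
The match began 59 bases before the start in Gbp2, 45 in Gbp3, 24 in Irgm1, 77 in Tgtp1 and 213 in Cxcl10. The Irf1 run shows the other element, 90 bases before the start. Gbp3 and Irgm1 each hold a further match that overlaps the one shown. Tgtp1 also holds the second element, overlapping its run.

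Some genes of the type I interferon response increased. Oasl2, an oligoadenylate synthetase-like protein, rose by 0.91 ± 0.13 (limma adjusted p 0.0037), from 0.36 and 0.18 to 1.30 and 1.04. Irf7, the amplifier of type I interferon, rose by 0.62 ± 0.09 (limma adjusted p 0.0049), Ifit1 by 0.63 ± 0.11 (0.0109) and Isg15 by 0.57 ± 0.09 (0.00717). Bst2, tetherin, fell by 0.37 ± 0.10 (limma adjusted p 0.0465). The call of Bst2 was lost with each of the 4 arrays left out, that of Isg15 without 4 w replicate 2, and Ifit1 kept its call only without 4 w replicate 1. Of 22 tested genes 6 were higher and 1 lower, at a median of 0.33, and 2 to 4 were higher without 1 of the 4 arrays. Irf9 (0.28) and Eif2ak2 (-0.15) did not pass.

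**Figure D5:**
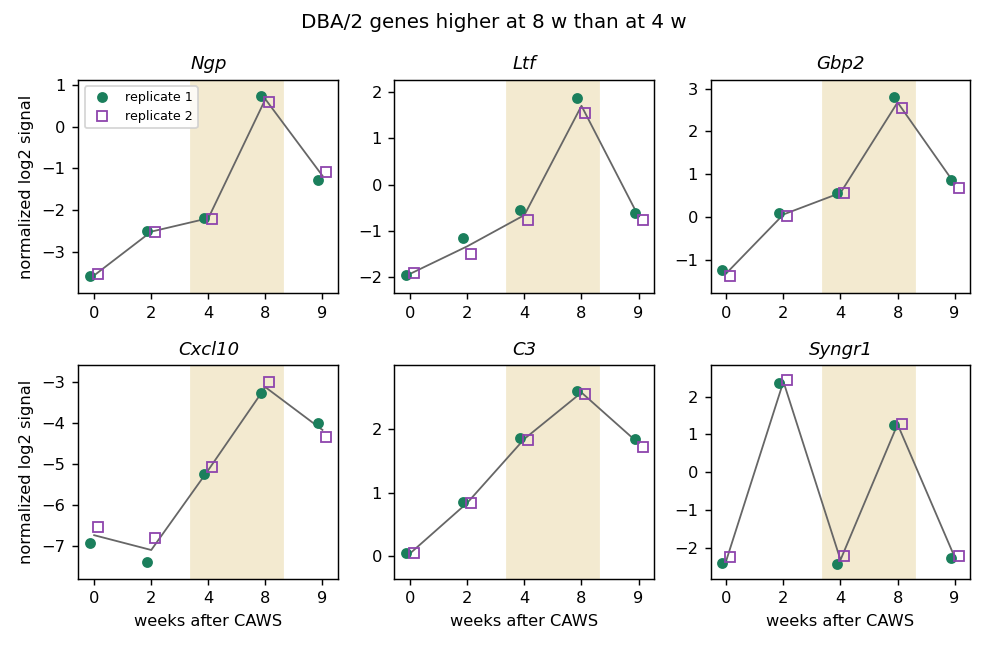
Normalized log2 signal of 6 genes higher at 8 w than at 4 w against weeks after CAWS in DBA/2 mice (points are the 2 replicates, lines their mean, the shaded band the step from 4 w to 8 w). Ngp, Ltf, Gbp2, Cxcl10 and C3 are highest at 8 w, and Syngr1 is high at 2 w and 8 w.

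Some monocyte genes and receptors that sense fungi increased. Csf1r, the growth factor receptor of monocytes, rose by 0.52 ± 0.13 (limma adjusted p 0.0369), and Ctss, cathepsin S, by 0.66 ± 0.11 (0.00915). Csf1r kept the call only without 8 w replicate 2 and lost it with the slide as a block (adjusted p 0.0503), and Ctss lost it without 4 w replicate 2 and without 8 w replicate 1. Of 15 monocyte markers 7 were higher, among them Treml4 (0.46), and 1, Nr4a1, lower, at a median of 0.40, but 0 to 4 were higher without 1 of the 4 arrays. Clec7a, dectin-1, a receptor for beta-glucan, went from 2.78 and 2.63 to 3.40 and 3.33 (0.66 ± 0.08, limma adjusted p 0.00157). Clec4e, mincle, rose by 1.02 ± 0.11 (limma adjusted p 0.00117), and both calls held with each of the 4 arrays left out in turn.

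Clec4n, dectin-2, the receptor for alpha-mannan, gave -3.35 and -4.03 at 4 w, a single array being clearly above background, and -2.39 and -2.53 at 8 w. Its groups did not overlap, but its change of 1.23 ± 0.65 did not pass (limma adjusted p 0.326) but did with the slide as a block (0.021). The adaptors Fcer1g (0.45) and Myd88 (0.63) rose, and Malt1, which links these receptors to NF-kB, fell by 0.65 ± 0.12 (limma adjusted p 0.0132). The call of Fcer1g was lost with each of the 4 arrays left out, while Myd88 kept it only without 8 w replicate 2 and Malt1 only without 8 w replicate 1. Of 12 fungal recognition genes 4 were higher and 1 lower, at a median of 0.23.

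Some lymphocyte markers fell. Bcl11b, a factor that maintains T cell identity, went from -1.34 and -1.31 to -2.08 and -2.23 (log2 -0.83 ± 0.08, limma adjusted p 0.000547), and Cd6, a T cell surface receptor, from 1.31 and 1.24 to 0.69 and 0.70 (-0.58 ± 0.08, 0.00288). Cd5, a T cell receptor regulator, fell by 0.40 (limma adjusted p 0.00744). Tcf7, the factor of naive and memory T cells, fell by 0.50 ± 0.12 (limma adjusted p 0.0297), and Foxo1, which keeps lymphocytes quiescent, by 0.70 ± 0.12 (0.00851). Tcf7 lost the call with each of the 4 arrays left out, Foxo1 without 4 w replicate 1 and without 8 w replicate 2, and Cd5 without either array of replicate 2. All 18 tested T cell markers had negative changes, between -0.83 and -0.16, and 6 passed, at a median of -0.32. With 1 of the 4 arrays left out 2 or 3 passed.

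Of 15 B cell markers 3 were lower, among them Cd22 (-0.28, a call lost with each of the 4 arrays left out) and Cr2, at a median of -0.24, and 0 or 1 without 1 of the 4 arrays. Cytotoxic genes went against the T cell markers in part. Gzma, granzyme A, rose by 0.74 ± 0.09 (limma adjusted p 0.00157) and Klrg1, a receptor of late effector cells, by 1.04 ± 0.20 (0.0137), whereas Ctsw, cathepsin W, fell by 0.51 ± 0.12 (0.0262). Gzmb, granzyme B, rose by 0.46 (limma adjusted p 0.0427), and of 13 cytotoxic genes 3 were higher and 1 lower, against 1 to 3 higher and 0 or 1 lower without 1 of the 4 arrays. Gzma kept the call with each of them left out, Klrg1 and Gzmb kept it only without 4 w replicate 1, and Ctsw lost it in all 4 cases.

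Some red cell transcripts rose and some platelet transcripts fell. Rhag, a membrane protein of the red cell lineage, went from -3.05 and -3.50 to -2.05 and -2.09 (log2 1.21 ± 0.13, limma adjusted p 0.000949), and Tfrc, the transferrin receptor of dividing precursors, from -1.84 and -1.94 to -0.68 and -0.81 (1.14 ± 0.10, 0.000464). Both had been lower at 4 w than at 0 w. Of 11 erythroid genes 6 were higher and none lower, at a median of 0.30, with Car2, carbonic anhydrase, at 0.67, and 5 were higher with 1 of the 4 arrays left out. Of 11 platelet genes 5 were lower and none higher, at a median of -0.26, among them Gp5 (-0.44) and Gp1ba (-0.42) of the von Willebrand factor receptor and the integrin Itgb3 (-0.34), and 1 or 2 with 1 of the 4 arrays left out. Of 8 general leukocyte markers Cd53 was higher (0.38) and none lower.

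Among granulocytes other than neutrophils, Prg2, the major basic protein of eosinophils, was well above background on both arrays at 8 w (-2.97 and -3.16) and on neither at 4 w, and was at least 3.63-fold higher (limma adjusted p 0.0034). After normexp its fitted log2 change was 0.99 and did not pass (adjusted p 1.0). The bound sets the mean at 8 w against the lowest signal well above background, or the probe's own signal where higher, on each 4 w array. Gata2, a factor of basophils and mast cells, fell by 0.96 ± 0.08 (limma adjusted p 0.000227) and Cpa3, a protease of the same cells, by 0.36 (0.0458), while Hdc, histidine decarboxylase, rose by 0.63 ± 0.11 (0.00997). Cpa3 lost the call with each of the 4 arrays left out and with the slide as a block (adjusted p 0.0658), and Hdc without 4 w replicate 2 and without 8 w replicate 1. The eosinophil receptors Ccr3 (0.34), Siglecf (0.56) and Il5ra (-0.09) did not pass. Of 12 basophil and eosinophil genes 2 were higher and 3 lower, at a median of -0.05.

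Among probes well above background on all 4 arrays, the largest rise was in Syngr1, synaptogyrin 1, a membrane protein of small vesicles. It gave -2.42 and -2.22 at 4 w and 1.25 and 1.29 at 8 w, a rise of 12-fold (log2 3.59 ± 0.10, limma adjusted p 6.39e-07). A second Syngr1 probe, clearly above background on a single 4 w array, rose by 3.99 ± 0.14 (limma adjusted p 1.73e-06). The level of the brighter probe at 0 w (-2.41 and -2.25) was close to that of 4 w. It was high at 2 w (2.37 and 2.43) and low at 9 w (-2.28 and -2.21). The brighter probe lies at chr15:79940606-79940665 of mm8 and the other at chr15:79937865-79937924.

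Apol10a, an apolipoprotein L, went from 0.12 and 0.07 to 2.03 and 2.08 (log2 1.96 ± 0.07, limma adjusted p 2.18e-06). It had stood at -1.49 and -1.36 at 0 w and at 1.07 and 1.10 at 2 w. The level at 4 w thus lay above 0 w but below 2 w. Asns, asparagine synthetase, and Mthfd2, an enzyme of mitochondrial folate metabolism, rose by 2.13 ± 0.09 and 1.96 ± 0.10 (limma adjusted p 5.53e-06 and 1.09e-05). Of the large falls not yet given, Prg4, lubricin, went from 0.30 and 0.20 to -1.48 and -1.66 (log2 -1.82 ± 0.10, limma adjusted p 2.44e-05), and Asb2, a substrate receptor of a ubiquitin ligase, from -3.26 on both arrays to -5.60 and -5.00 (-2.04 ± 0.43, 0.0209). The call of Asb2 was lost with each of the 4 arrays left out in turn, and after normexp its change was -0.56 (adjusted p 1.0).

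Liver transcripts were traces in these 4 arrays. Of 15 tested hepatocyte markers 10 were not well above background on any of them, and the list's summed linear signal was 1.50 and 2.10 at 4 w and 0.987 and 1.72 at 8 w. Of the 15, 3 were lower and none higher. Ahsg (-0.01), Fgb (-0.18) and Apoc1 (-0.44), well above background on all 4 arrays, did not pass. Fabp1, the fatty acid-binding protein of liver and gut, was well above background on both arrays at 4 w (-2.51 and -2.56) and on neither at 8 w, and was at least 7.73-fold lower (limma adjusted p 2.18e-06). Alb, albumin, at -4.64 and -3.18 at 4 w, was at least 2.98-fold lower (limma adjusted p 0.00199), Rbp4 was not well above background at either time, and the secreted liver proteins Serpina1d and Mup1 fell by 1.88 ± 0.13 and 1.73 ± 0.35 (0.000128 and 0.0177), the call of Mup1 being kept only without 8 w replicate 2. After normexp none of Fabp1, Alb, Serpina1d and Mup1 passed, at log2 changes of -1.21, -0.49, -0.63 and -0.57. Whether Serpina1d, Mup1 and their near copies were told apart was not tested, nor was the part of such traces in the falls of plasma protein genes.

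Some probes that were low at 4 w rose back, and others fell further. Acot6, an acyl-CoA thioesterase, went from -4.74 and -5.63 to -3.10 and -3.57 (log2 1.85 ± 0.38, limma adjusted p 0.0189), a call kept only without 4 w replicate 1, with -2.91 and -2.74 at 0 w. Hsd3b2, a steroid dehydrogenase, rose by 1.86 ± 0.32 (limma adjusted p 0.00888), a call lost without either 8 w array, and for Myom2, Pcdh17 and Tbc1d19, none well above background at 4 w, the rises were at least 1.58-fold, 1.49-fold and 1.44-fold. Genes that fell further included lymphocyte regulators at other than their brightest probes, Ikzf3, Aiolos (-1.42 ± 0.22, limma adjusted p 0.00582), and Satb1, a chromatin organiser (-0.97 ± 0.08, 0.000251), with Cab39l, Sh3pxd2a, Mtss1 and A630023P12Rik between -1.23 and -1.01. Cab39l, too, was read at other than its brightest probe. After normexp the Ikzf3 change of -1.42 was -0.39 and did not pass. Another Ikzf3 probe fell by 0.72 (limma adjusted p 0.00437), and the others (-0.64 and -0.20) did not pass. At its brightest probe Satb1 stood at -0.46 (limma adjusted p 0.0274), a call kept only without 8 w replicate 1. Siglech, a receptor of plasmacytoid dendritic cells, waned by at least 2.26-fold and Tom1l2 by at least 2.36-fold, but the 4 w arrays lay over 1 log2 unit apart in both, and both calls were kept only without 4 w replicate 1 and lost with the slide as a block (adjusted p 0.0567 and 0.0725).

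Of the 26 tested genes on which the study put weight, 7 were higher and 4 lower at 8 w, at a median of 0.18. This list was chosen by the study on these samples and is no independent evidence of a direction. Others of the list were the transcription factor Spi1 (0.25), the integrin Itgam (0.21), the adhesion molecule Icam1 (0.09), Brd8 (0.10), Nupr1 (0.48, limma adjusted p 0.0366, lost with each of the 4 arrays left out) and Gapdh (0.24, adjusted p 0.077 and with the replicate block 0.0309).

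Set against the same step in B6 mice, the strain difference passed for 4582 probes (20.0%), 1629 with a higher log2 change in DBA/2 mice (7.1%) and 2953 with a lower one (12.9%). The higher share, 35.6%, was 47.0% when scaled to the median and 51.0% to the 75th percentile of all probes. The B6 arrays at 8 w held liver transcripts, with a median log2 change of 5.37 over the 15 hepatocyte markers in B6 mice, and all 15 had a lower log2 change in DBA/2 mice that passed. Their part in the strain difference of plasma protein genes was not tested. Gbp2 gave log2 changes of 2.11 in DBA/2 and 0.77 in B6 mice (difference 1.34, limma adjusted p 0.000589). Ngp rose less in DBA/2 mice, by 2.85 against 4.80 (difference -1.95, limma adjusted p 0.00418). For Ccl3 the steps were -1.88 and -1.83, a difference of -0.05 that did not pass (limma adjusted p 0.863), and for Irf1 0.91 and 0.69 (difference 0.22, 0.338).

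The erythroid list differed by strain, with a higher log2 change in DBA/2 mice in 10 of 11 genes, at a median step of 0.30 in DBA/2 and -1.15 in B6 mice. Syngr1 rose by 3.59 in DBA/2 mice against a change of -0.98 in B6 mice (difference 4.57, limma adjusted p 3.36e-07). Cxcr3 and Cxcr6 fell in DBA/2 mice and changed by 1.06 and 1.19 in B6 mice (differences -2.36 and -2.68, limma adjusted p 2.93e-06 and 1.45e-05).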

How the data were processed

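The deposited files are 1-colour scanner outputs of Agilent Feature Extraction (9.5.3.1 per the file headers) with probe positions of mm8. The authors background-subtracted each spot's intensity, which is the processed signal used here, and their deposited value table holds the same intensity values on a linear scale for all 41174 probes, neither log2 transformed nor scaled between arrays (medians of 11.4 and 11.1 at 4 w and 9.04 and 9.40 at 8 w in DBA/2 mice).

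Control and outlier spots were dropped and spots of 1 probe averaged. The log2 processed intensity of each deposited file minus the array's 75th percentile, taken over 11536 probes clearly above background on each of the 19, entered limma 3.58.1 (lmFit and eBayes, R 4.3.3) with 18 RNA samples of 10 groups, the 2 arrays of 1 B6 RNA averaged. The study's methods name no array test. The fit had 8 residual and 1.37 prior degrees of freedom. It was also run on simulated data with independent noise and no slide effect. Such data cannot show how deviations shared within a slide affect the calls. The number of arrays, 2 at each time compared, limits the precision.

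Symbols came from RefSeq by accession for 24375 probes, by gene name for 6301 and by synonym for 2426. The remaining 8072 kept the name given in the array files. A gene is given by its brightest tested probe, save where the ranking by size of change picked another. Named were all tested genes of the complement, interferon gamma and study lists (the values of some genes are not reported here), up to 4 called genes in each direction of every other list, the 10 largest rises and falls well above background on all 4 arrays, and the 6 largest changes of each kind (waned, increased further, recovered, fell further). Other genes are named as list members, to show which did or did not pass. Members, lists and tests were chosen with earlier results of these data known.

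File headers put same-numbered DBA/2 replicates of 0 w, 2 w, 4 w and 8 w on a shared slide. Their deviations from group means correlated at 0.746 to 0.829 over 11536 probes. Replicate number, slide and scan date coincide in these groups, so the correlation cannot show a pairing of mice or RNA. The main fit held no term for the slide, and the blocks were alternatives. Alternatives were other background corrections, scalings, filters, sample sets, blocks, array weights and arrays left out. Where a replicate left out leaves 1 array, it is taken to vary like the other groups.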

Additional observations from a re-analysis of the deposited data

Results flagged for a closer look

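For 17 of the genes named for their size, the step from 4 w to 8 w differed between the strains in limma (adjusted p under 0.05). These genes were picked by the size of the DBA/2 change, which is itself part of the strain difference. Such a choice favours a large difference, so their number cannot show how common strain differences are. Over all tested probes the strain difference passed for 20.0%. Each value below is the log2 change of DBA/2 less that of B6 mice, with both changes in parentheses in that order. It was 4.57 for Syngr1, 3.29 for Mthfd2 (1.96 and -1.33), 2.69 for Asns (2.13 and -0.56), 1.81 for Apol10a (1.96 and 0.15) and 1.34 for Gbp2. Of the neutrophil genes, which rose in both strains, it was -1.95 for Ngp, -1.32 for Ltf (2.37 and 3.68) and -1.25 for Camp (2.54 and 3.79). Fos fell in both strains and less so in DBA/2 mice, with a difference of 0.65 (-2.10 and -2.75).

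The remaining differences were all negative. They were -2.96 for Socs2 (-2.16 and 0.80), -3.90 for Asb2 (-2.04 and 1.86), -4.93 for the dimmer Fn1 probe (-1.98 and 2.96), -5.81 for Prg4 (-1.82 and 3.99) and -6.48 for C4b (-1.79 and 4.69). Saa3 gave -9.85 (-2.28 and 7.57), Serpina1d -9.53 (-1.88 and 7.65) and Mup1 -11.66 (-1.73 and 9.93). Hepatocyte markers moved with these in B6 mice (median log2 change 5.37 over 15 genes), and their part was not tested.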

How the results depend on the processing

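The step from 4 w to 8 w passed for 1921 probes. This became 45 after normexp, 408 with no filter on dim probes (46.6% higher), 619 with DBA/2 samples only, 3140 with the replicate block or the scan date as a block, 926 by a 2-fold change without a test, and 655 to 1637 with 1 DBA/2 array left out. With the 4 arrays alone limma called 0 probes, with 3484 at an unadjusted p under 0.05. From 0 w to 4 w, 3400 became 295 after normexp, 2253 in the value table, 1477 with no filter, 1569 by 2-fold change and 1812 to 3095 with 1 array left out. The strain difference, 4582, became 408, 13810 (1.27% higher) and 2209 under normexp, the value table and no filter, and 3037 to 4198 with 1 array left out; it could not be fitted with DBA/2 samples only. No other alternative moved these counts by over 1.5 times. The value table is not scaled, and 1 array left out leaves fewer samples; otherwise the cause was not tested.

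Of 133 probes that the naming rule gave and that passed, 63 kept the call with each of the 4 arrays left out in turn, 37 lost it in all 4 cases and 17 kept it after normexp. The replicate block took none and added Cfb, Cr1l (log2 0.49, adjusted p 0.0263), Gapdh, Ifng and Ifngr1. The slide as a block took 13 of the 133 calls (C1qa, Ccl5, Cd22, Cpa3, Creld2, Csf1r, Fcna, Hk1, Hspa1a, Hsph1, Mpo, Siglech and Tom1l2) and added 4 (Cfp, Clec4n, Ifng and Ifngr1). The sign of the log2 change turned, for the 75th percentile of all probes, in Jak2 0.03 and Socs1 0.04; for the median, Jak2 0.02 and Socs1 0.02; for quantile normalization, C5ar1 0.05, Mbl1 0.11 and Socs1 0.01; for normexp, C5ar1 0.12, Cd59a -0.01, Cfi 0.09, Mbl1 0.12 and Serping1 0.11; for the value table, Brd8 -0.08, C1ra -0.06, Cd55 -0.17, Cd59a -0.17, Icam1 -0.09, Ifngr2 -0.01 and Il18 -0.17; and for the mean of a gene's probes, C1ra -0.59, Cd22 0.02, Cd55 -0.06, Gpi1 -0.11, Hk1 0.01 and Jak2 0.32. Among genes that had passed, these were Cd22, Gpi1 and Hk1, for which other probes go the other way without passing, as also for C1ra, Cd55, Jak2, Hspa1a and Mup1. With 1 array left out the range crossed 0 for Brd8 (-0.03 to 0.24), C1qb (-0.75 to 0.41), C1ra (-0.27 to 0.53), C1s1 (-1.45 to 0.25), C5ar1 (-0.37 to 0.24), Cd55 (-0.13 to 0.15), Cd59a (-0.06 to 0.08), Cfi (-1.45 to 0.24), Eif2ak2 (-0.54 to 0.23), Hc (-0.33 to 0.81), Il18 (-0.06 to 0.06), Mbl1 (-0.90 to 0.18), Serping1 (-1.44 to 0.26) and Socs1 (-0.06 to 0.02), none of which had passed. Medians of the neutrophil and type II interferon lists stayed between 1.04 and 1.39 and between 0.52 and 0.88 under other scalings, and those of the T cell list between -0.50 and -0.26.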

Other observations

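Genes of the amino acid response, a program of transporters and enzymes that cells switch on when amino acids run short, were put together as a list after the rises of Asns and Mthfd2 had been seen, so no support is drawn from it. Asns, which makes asparagine, gave -1.63 and -1.80 at 4 w and 0.40 and 0.43 at 8 w, and Mthfd2 gave -1.64 and -1.79 and then 0.35 and 0.14. Atf5, a transcription factor of the program, went from -0.98 and -0.96 to 0.39 and 0.37 (log2 1.35, limma adjusted p 1.14e-05). Ddit4, an inhibitor of mTOR signalling, rose by 0.99 (limma adjusted p 0.000329), the transporter chains Slc7a5 and Slc3a2 by 0.69 and 0.56, and the mitochondrial enzyme Pck2 by 0.59. Of 28 tested genes 9 were higher and none lower, at a median of 0.18, and Atf4 (0.09), Phgdh (0.17), Psat1 (0.40), Trib3 (-0.31) and Ddit3 (0.13) did not pass. The Asns promoter held TGATGNAA 23 bases before its start, letters found in 3.97% of all RefSeq promoter windows and in 31.0% of the 29 windows of this list.
Asns (chr6:7693214-7693243 of GRCm38.p6, minus strand): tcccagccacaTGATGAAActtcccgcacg

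A pair of cyclins of the dividing cell rose, Ccna2 by 0.66 (limma adjusted p 0.00174) and Ccnb2 by 0.53 (0.0034), the only 2 of 20 tested cell cycle genes that passed, at a list median of 0.10. The calls held with each of the 4 arrays left out in turn. Nfil3, a clock output factor that also acts in myeloid and lymphoid cells, rose by 0.95 (limma adjusted p 0.00132), the only call among 12 clock genes. Over all tested probes 8.37% passed at this step, which is near the shares of the cell cycle and clock lists. Glycolysis genes had 3 of 15 higher (Pgam1, Pgk1 and Gpi1, between 0.29 and 0.46) and Hk1 lower, and all of these calls were lost with each of the 4 arrays left out in turn. Of 10 plasma cell genes Xbp1 was higher (0.38) and Creld2 lower (-0.37), calls that were also lost with each array left out.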
